A study of Mus musculus with 8 samples.

Results

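The genes of the ephrin, semaphorin, netrin and Slit guidance systems were followed in mouse embryonic stem cells that had left pluripotency culture. Members were taken by symbol from the expression table: EphA and EphB receptors, ephrin-A and ephrin-B ligands, semaphorins of classes 3 to 7, plexins, neuropilins, Slits, Robos, netrins and Unc5 receptors. The rule found 68 of the 38610 symbols in the table. It used symbols and no expression value, but it was set with earlier results of these data known. Of the 68 members, 44 reached at least 1 FPKM in at least 2 libraries and were tested, and 24 did not. FPKM scales the fragments of a gene by transcript length and by the mapped fragments of the library, so levels can be set side by side between genes.

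All 8 libraries came from CJ9 cells, a mouse embryonic stem cell line of strain 129S4/SvJae, taken on day 4 after leukemia inhibitory factor (LIF) had been withdrawn. Of these libraries 2 were wild type (WT), 3 came from cells knocked out by CRISPR for Evx1as, a long noncoding RNA read from the strand opposite the homeobox gene Evx1, and 3 labelled EVX1 KO. The labels do not say whether the libraries of a group came from separate cultures or from how many clones. The p-values therefore measure the spread between these libraries, which may be technical. Whole chromosomes also differed within groups, by the median log2 deviation of genes of at least 5 FPKM from their mean over all libraries. It was 0.13, -0.36 and -0.34 for chromosome 14 in Evx1as KO. For chromosome 8 it was -0.38, -0.30 and 0.08 in EVX1 KO. The cause of these shifts was not tested. Evx1as (listed as 5730457N03Rik) was at 5.36 and 6.75 FPKM in WT, at 0.0549, 0.104 and 0.0485 FPKM in Evx1as KO and at 5.01, 8.81 and 7.39 FPKM in EVX1 KO. Evx1 itself was at 22.0 and 31.2 FPKM in WT, at 2.45, 3.84 and 0.541 FPKM in Evx1as KO and at 26.3, 20.8 and 31.7 FPKM in EVX1 KO. No source used here gives the place of the change in EVX1 KO cells, so the transcript level does not check that label. Every set of values per library is given in the order of the replicate numbers.

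The libraries lay close in depth and in overall level. Summed FPKM ran from 531523 to 587798, depth estimated relative to the first WT library from 0.863 to 1.19, and the number of genes at 1 FPKM or more from 12244 to 12442. The pluripotency factor Pou5f1 was between 302 and 458 FPKM in every library, in keeping with the label of embryonic stem cells. Of 8 pluripotency and primed epiblast markers, 6 rose in Evx1as KO (Pou5f1, Sox2, Nanog, Dnmt3b, Fgf5 and Otx2) and 2 in EVX1 KO (Fgf5 and Otx2), with sums of 438 to 494 FPKM in WT, 829 to 900 FPKM in Evx1as KO and 609 to 630 FPKM in EVX1 KO. Of 10 streak and nascent mesoderm markers 9 fell in Evx1as KO, among them Evx1 itself, the gene opposite Evx1as, whose values are given above. Their summed level, Evx1 included, was 443 to 494 FPKM in WT, 73.6 to 192 FPKM in Evx1as KO and 463 to 519 FPKM in EVX1 KO. Of the 8 neuroectoderm markers 5 were tested, 2 of them rose in Evx1as KO and none fell. Their sums were 78.3 to 99.4 FPKM in WT, 101 to 119 FPKM in Evx1as KO and 35.5 to 82.3 FPKM in EVX1 KO. Of the 8 endothelial markers 2 were tested, and both fell in Evx1as KO, Kdr by 2.62 and Flt1 by 1.05 on the log2 scale, while Pecam1 did not pass 0.6 FPKM and Cdh5, Tie1 and Emcn were at 0 in every library. Endothelial sums were 20.2 to 26.1 FPKM in WT, 6.59 to 9.84 FPKM in Evx1as KO and 19.4 to 26.9 FPKM in EVX1 KO. Endoderm markers (5 tested, 2 fell) summed to 23.5 to 33.9, 7.69 to 14.1 and 42.7 to 72.3 FPKM in the same order, and neural crest markers (4 tested, 1 rose and 2 fell) to 30.9 to 41.6, 18.2 to 26.1 and 13.4 to 24.8 FPKM. Of 5 tested fibroblast markers 1 fell. Over all genes tested, 24.5% were called in Evx1as KO against WT and 1.24% in EVX1 KO against WT. In bulk RNA, fewer cells of a type and less RNA per cell cannot be told apart, and the part of a shift in cell types in the guidance gene results was not tested.

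Guidance molecules were named for steering growing axons, and they also act on migrating cells, vessels and tissue boundaries in the early embryo. Ephrins are bound to the cell membrane and signal through Eph receptor tyrosine kinases on the neighbouring cell, in both directions. Semaphorins signal through plexins. The secreted class 3 semaphorins mostly need a neuropilin as the binding subunit of the receptor, and neuropilins also bind vascular endothelial growth factors. Slits are large secreted ligands of Robo receptors and commonly repel, and netrins attract through Dcc or Neo1 and repel through Unc5 receptors. During gastrulation cells of the primitive streak lose their epithelial contacts and migrate, and members of these families are known in that process.

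Evx1as KO changed the guidance genes in both directions. Against WT, 14 of the 44 tested members fell and 8 rose, so that 50.0% passed the test, against a background of 24.5% over all 13188 genes tested (limma on log2(FPKM + 1), adjusted p under 0.05). For the fall alone the background was 11.4% and for the rise 13.0%. Among the falls, Nrp1, Plxna2, Plxna4, Plxnd1 and Slit2 were below 1 FPKM in every Evx1as KO library. They were tested only through the groups where they were higher, so being tested and being called lower rest on the same values. The median log2 fold change of the tested members was -0.13, where that of all genes was 0.02, and the median size of the change regardless of sign was 0.46 on the log2 scale against 0.26. EVX1 KO against WT gave 1 member that rose and none that fell, where 1.24% of all genes passed (0.69% higher, 0.554% lower). The difference of the knockouts, EVX1 KO against Evx1as KO, gave 16 members higher and 7 lower in EVX1 KO, where 22.0% of all genes passed (10.7% higher, 11.3% lower). The comparisons share libraries, so each is given with its own values. WT is in the first and the second, Evx1as KO in the first and the last, and EVX1 KO in the second and the last.

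**Figure D1:**
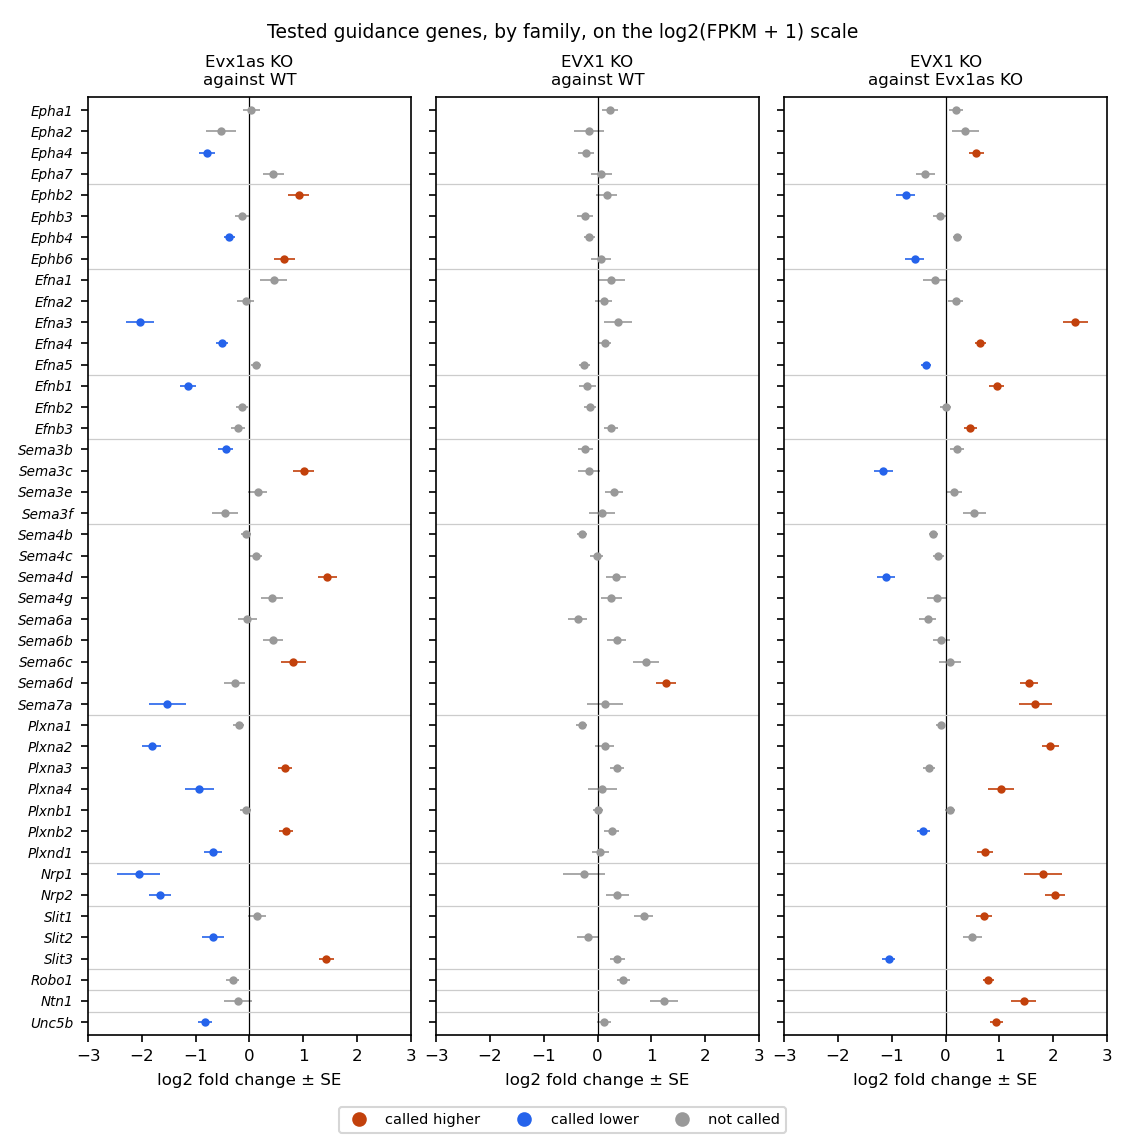
Log2 fold change with its standard error (horizontal axis, log2(FPKM + 1) scale) of the 44 tested guidance genes, grouped by family from top to bottom, in the 3 comparisons; red marks members called higher, blue members called lower and grey members not called at adjusted p under 0.05. Called members stand on both sides of 0 in the left and right panels (14 lower and 8 higher on the left, 7 lower and 16 higher on the right), and 1 member, Sema6d, is called in the middle panel.

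Both neuropilins fell in Evx1as KO. Nrp2, which binds class 3 semaphorins such as Sema3f, was the more abundant by far, with 52.5 and 57.4 FPKM in WT, 14.8, 23.3 and 13.3 FPKM in Evx1as KO and 68.3, 64.2 and 82.3 FPKM in EVX1 KO. The 3 groups did not overlap, with Evx1as KO lowest and EVX1 KO highest. Nrp2 fell by 1.66 ± 0.21 (SE) on the log2 scale in Evx1as KO against WT (adjusted p = 0.00171) and was 2.03 ± 0.19 higher in EVX1 KO than in Evx1as KO (adjusted p = 0.000407). Its difference between EVX1 KO and WT, 0.37 ± 0.21, did not pass (adjusted p = 0.339). Nrp1, a receptor subunit for Sema3a and for vascular endothelial growth factor, was at 6.96 and 1.75 FPKM in WT, which differed widely from each other. It was near the bottom of the scale in Evx1as KO, at 0.0785, 0.198 and 0.0924 FPKM, and at 1.89, 3.49 and 3.69 FPKM in EVX1 KO. Each Evx1as KO library lay far below both other groups. The change against WT was -2.06 ± 0.39 (adjusted p = 0.00737) and EVX1 KO was 1.81 ± 0.35 above Evx1as KO (adjusted p = 0.00854). Without the first WT library the size dropped to -1.30 with the call kept, and with a pseudocount of 0.1 it was -4.06, since log2(FPKM + 1) compresses low levels. Nrp1 is on chromosome 8, whose median gene of at least 5 FPKM stood at -0.38, -0.30 and 0.08 in EVX1 KO, 0.16, 0.15 and 0.15 in Evx1as KO and 0.11 and 0.01 in WT, as log2 deviations from its mean over all libraries. With each chromosome centred, the changes were -2.16 for Evx1as KO against WT and 2.17 for EVX1 KO against Evx1as KO, both called. Kdr, a receptor of vascular endothelial growth factor that streak mesoderm also expresses, ran with Nrp1, at 10.3 and 4.32 FPKM in WT, 0.285, 0.377 and 0.126 FPKM in Evx1as KO and 3.67, 9.97 and 7.18 FPKM in EVX1 KO, and its part in the result was not tested. Summed over both genes, neuropilin FPKM was 59.2 to 59.5 in WT, 13.4 to 23.5 in Evx1as KO and 67.7 to 86.0 in EVX1 KO.

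Among the plexins, the signalling receptors of the semaphorins, Plxna2 carried the largest fall. It was at 5.20 and 3.53 FPKM in WT, at 0.332, 0.640 and 0.562 FPKM in Evx1as KO and at 4.49, 5.50 and 4.49 FPKM in EVX1 KO. WT and EVX1 KO interleaved, and every Evx1as KO library was below 1 FPKM. The log2 fold change was -1.82 ± 0.18 against WT (adjusted p = 0.000884) and EVX1 KO exceeded Evx1as KO by 1.95 ± 0.16 (adjusted p = 0.000318). With a pseudocount of 0.1 these became -2.88 and 3.04. Nrp2 and Plxna2 are both on chromosome 1, where the median gene of at least 5 FPKM stood 0.12 to 0.14 above its mean over all libraries in EVX1 KO, 0.09 to 0.10 below it in Evx1as KO (log2), with WT values of 0.02 and -0.10. Both genes stayed called in both comparisons after each chromosome was centred. The 250 bases before the start of each gene are shown because these were the most abundant receptor to fall among the semaphorin receptors and the plexin with the largest change. Both are from RefSeq on GRCm38.p6, 5′ to 3′, Nrp2 at chr1:62703067-62703316 and Plxna2 at chr1:194619579-194619828, both on the plus strand. Capitals mark the TCF/LEF core CTTTGA, the only 1 of the 3 motifs searched that was found in either.
Nrp2: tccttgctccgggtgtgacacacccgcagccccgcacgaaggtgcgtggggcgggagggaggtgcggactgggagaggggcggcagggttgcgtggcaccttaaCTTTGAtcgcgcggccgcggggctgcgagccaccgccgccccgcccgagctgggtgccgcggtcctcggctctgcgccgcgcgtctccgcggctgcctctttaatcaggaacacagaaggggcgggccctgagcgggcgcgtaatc
Plxna2: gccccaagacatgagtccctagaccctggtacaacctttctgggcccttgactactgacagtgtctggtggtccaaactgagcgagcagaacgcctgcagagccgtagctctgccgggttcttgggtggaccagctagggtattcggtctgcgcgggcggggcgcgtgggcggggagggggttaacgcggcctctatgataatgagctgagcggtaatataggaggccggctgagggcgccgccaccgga

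The other plexins divided. Plxna4, a partner of neuropilins, went from 1.48 and 0.644 FPKM in WT to 0.0847, 0.0571 and 0.0244 FPKM in Evx1as KO, with 0.566, 1.36 and 1.69 FPKM in EVX1 KO. Its fall of -0.94 ± 0.27 (adjusted p = 0.0348) grew to -1.44 and -2.82 with pseudocounts of 0.5 and 0.1, and the call was lost without the first WT library, without any 1 of the Evx1as KO libraries and without the second EVX1 KO library. Plxnd1, the receptor of Sema3e in vessels, fell from 2.12 and 1.35 FPKM to 0.603, 0.738 and 0.749 FPKM, a change of -0.68 ± 0.17 (adjusted p = 0.0195, lost without the first WT or the first Evx1as KO library, and -1.18 with a pseudocount of 0.1). For both genes every Evx1as KO library lay below all others. EVX1 KO exceeded Evx1as KO by 1.03 ± 0.24 for Plxna4 (adjusted p = 0.0179, lost without the third Evx1as KO or the second EVX1 KO library) and by 0.73 ± 0.15 for Plxnd1 (adjusted p = 0.0103). Plxnb2, a receptor of class 4 semaphorins and after Plxna1 the most abundant plexin, moved the other way, from 34.9 and 31.1 FPKM in WT to 56.3, 49.3 and 54.6 FPKM in Evx1as KO. That rise was 0.68 ± 0.14 (adjusted p = 0.00919, lost without the second WT library). In EVX1 KO Plxnb2 was at 48.1, 37.3 and 35.0 FPKM, 0.41 on the log2 scale under Evx1as KO (-0.41 ± 0.12, adjusted p = 0.0412). The removal of any single library ended that call except the second of Evx1as KO and the first of EVX1 KO. No filter, only the 2 groups compared and no intensity trend also ended it. Plxna3 also rose, from 2.53 and 2.85 FPKM to 5.37, 4.82 and 4.41 FPKM, by 0.67 ± 0.13 (adjusted p = 0.00747, lost without the first WT library). In EVX1 KO Plxna3 lay between these groups, at 3.58, 3.54 and 4.12 FPKM, and did not pass against either. Plxna1, at 41.1 to 54.4 FPKM in all libraries, and Plxnb1, at 13.4 to 15.7 FPKM, did not pass in any comparison. Because the abundant plexins rose or did not pass, the summed plexin level was 118 to 121 FPKM in Evx1as KO against 109 to 113 FPKM in WT and 105 to 118 FPKM in EVX1 KO.

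Of the semaphorins, the largest changes between Evx1as KO and WT were a fall of Sema7a and rises of Sema4d and Sema3c. Sema4d, a membrane semaphorin that binds plexin-B receptors, was at 3.96 and 4.93 FPKM in WT, 15.7, 11.5 and 14.6 FPKM in Evx1as KO and 7.41, 5.46 and 4.90 FPKM in EVX1 KO. Its Evx1as KO libraries were all above the other 5. The rise was 1.45 ± 0.18 (adjusted p = 0.00175), and EVX1 KO lay 1.11 ± 0.16 on the log2 scale below Evx1as KO (log2 fold change -1.11, adjusted p = 0.00278). Sema3c, a secreted ligand known from the outflow tract of the heart, was at 2.85 and 3.83 FPKM in WT, 9.12, 5.88 and 8.34 FPKM in Evx1as KO and 2.73, 2.41 and 3.56 FPKM in EVX1 KO. Evx1as KO again stood apart from the rest, with a rise of 1.01 ± 0.20 (adjusted p = 0.00859, lost without the first WT library) and a difference of -1.16 ± 0.18 between EVX1 KO and Evx1as KO (adjusted p = 0.00332). Sema7a, which is held to the membrane by a lipid anchor and binds plexin C1 and integrins, was at 3.27 and 4.34 FPKM in WT, 0.243, 1.74 and 0.343 FPKM in Evx1as KO and 3.02, 5.59 and 4.49 FPKM in EVX1 KO. The second Evx1as KO library lay nearest the other groups. The fall was -1.52 ± 0.34 (adjusted p = 0.0136), lost without either WT library and -2.56 with a pseudocount of 0.1, while EVX1 KO was 1.66 ± 0.31 above Evx1as KO (adjusted p = 0.00687), or 2.73 with a pseudocount of 0.1, a call kept under the 17 alternatives in which Sema7a was tested. The plexin C1 gene itself did not exceed 0.284 FPKM.

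Sema6c rose from 3.10 and 3.18 FPKM in WT to 7.04, 4.81 and 7.31 FPKM in Evx1as KO, a change of 0.82 ± 0.24 (adjusted p = 0.0365), and EVX1 KO was as high, at 9.49, 6.32 and 4.97 FPKM. This call was lost without either WT library, without replicate 1 or 3 of Evx1as KO and without the second EVX1 KO library. Sema3b was just inside the threshold, with 10.5 FPKM in both WT libraries, 6.14, 9.04 and 7.52 FPKM in Evx1as KO and -0.44 ± 0.14 (adjusted p = 0.0498), a call that 13 of the 18 alternatives ended, among them the removal of any library but the second of Evx1as KO. The most abundant semaphorins did not pass in any comparison: Sema6a at 13.8 to 26.5 FPKM, Sema3e at 13.0 to 22.3 FPKM, Sema4c at 10.8 to 14.1 FPKM and Sema4b at 9.07 to 11.8 FPKM. Sema3f, the ligand for which Nrp2 is best known, was at 7.91 and 6.63 FPKM in WT, 4.16, 4.94 and 6.03 FPKM in Evx1as KO and 9.88, 8.97 and 5.06 FPKM in EVX1 KO and did not pass either. Secreted class 3 semaphorins summed to 34.5 to 40.8 FPKM in WT, 37.3 to 40.6 FPKM in Evx1as KO and 34.7 to 43.5 FPKM in EVX1 KO, so that ligand sums overlapped where neuropilin sums did not. The membrane semaphorins summed to 61.1 to 63.2 FPKM in WT, 73.4 to 74.9 FPKM in Evx1as KO and 60.5 to 66.5 FPKM in EVX1 KO, with Evx1as KO above both.

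**Figure D2:**
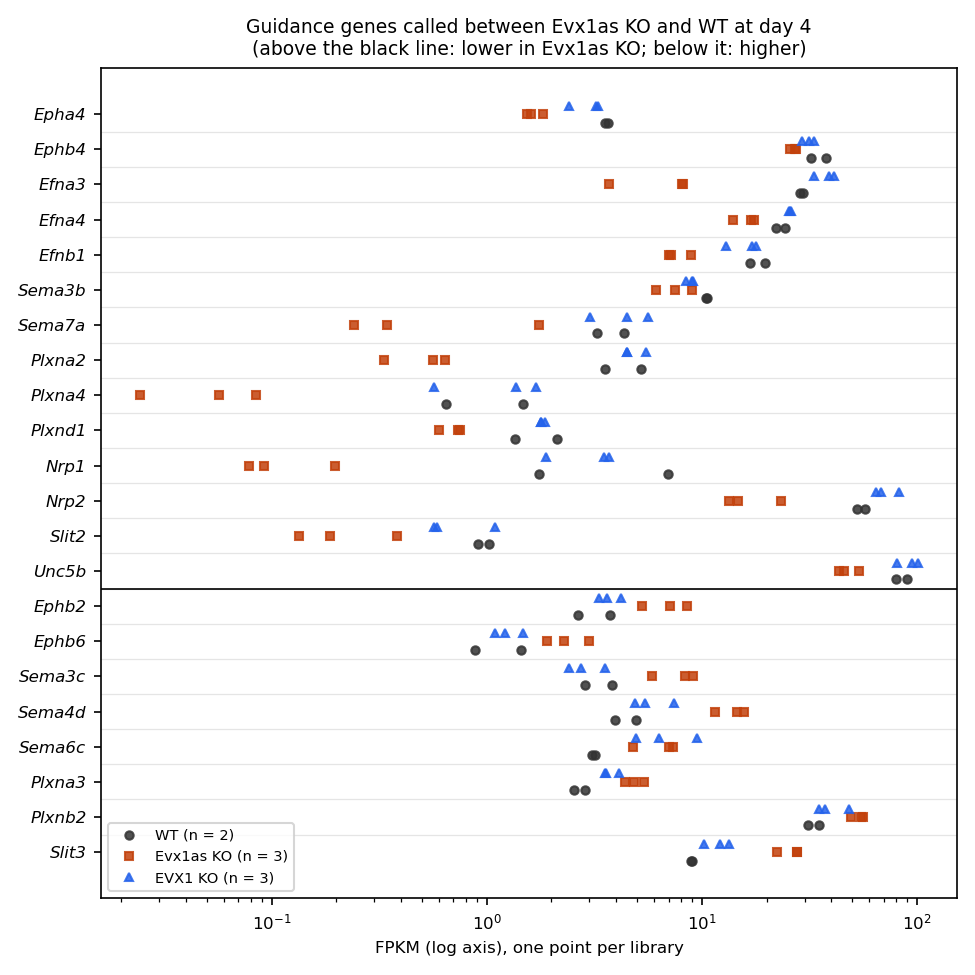
FPKM (log axis) in each library of the 22 guidance genes called between Evx1as KO and WT, with WT as black circles, Evx1as KO as red squares and EVX1 KO as blue triangles, above the line the 14 that were lower in Evx1as KO and below it the 8 that were higher. Nrp1 and Plxna4 reach furthest to the left in Evx1as KO (0.0785 to 0.198 FPKM and 0.0244 to 0.0847 FPKM), while Nrp2 and Unc5b are abundant in all groups.

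The ephrins that changed in Evx1as KO all fell. Efna3, a lipid-anchored ephrin-A, had the largest fall of the family, from 29.4 and 28.4 FPKM in WT to 8.05, 8.15 and 3.69 FPKM in Evx1as KO, with 33.3, 38.9 and 41.2 FPKM in EVX1 KO. WT and EVX1 KO libraries were all above 28 FPKM and those of Evx1as KO all below 9 FPKM. The log2 fold change was -2.03 ± 0.26 against WT (adjusted p = 0.0018) and 2.41 ± 0.23 for EVX1 KO against Evx1as KO (adjusted p = 0.000459), the largest of any member in either direction there. Efna4 fell less, from 22.1 and 24.3 FPKM to 17.0, 17.5 and 13.9 FPKM (-0.51 ± 0.11, adjusted p = 0.0129, lost without the second WT library), and was at 25.9, 25.6 and 25.4 FPKM in EVX1 KO, 0.64 ± 0.10 above Evx1as KO (adjusted p = 0.00338). Efnb1, a transmembrane ephrin that is X-linked, was at 19.6 and 16.8 FPKM in WT, 7.02, 7.19 and 8.93 FPKM in Evx1as KO and 13.0, 17.0 and 17.8 FPKM in EVX1 KO. Its groups of WT and EVX1 KO overlapped, Evx1as KO lay below both, and the fall was -1.14 ± 0.16 (adjusted p = 0.00236), with EVX1 KO 0.95 ± 0.14 above Evx1as KO (adjusted p = 0.00276). Efna1, Efna2 and Efnb2 did not pass in any comparison, and Efnb2, a ligand that marks arteries, was at 13.4 to 17.9 FPKM. Efnb2 is on chromosome 8, whose median shifted between libraries. With each chromosome centred it was 0.35 higher in EVX1 KO than in Evx1as KO, still not called (adjusted p = 0.0590). Efna5 and Efnb3 passed in EVX1 KO against Evx1as KO only among the 3 tests, at -0.36 ± 0.09 (adjusted p = 0.0203) and 0.46 ± 0.12 (adjusted p = 0.0231). Their libraries ran from 8.81 to 9.25 FPKM in Evx1as KO and 6.73 to 6.97 FPKM in EVX1 KO for Efna5, and from 4.29 to 5.51 and 6.70 to 7.38 FPKM for Efnb3. Both calls were lost without replicate 1 or 3 of Evx1as KO or the second EVX1 KO library, and that of Efnb3 also without the first of EVX1 KO.

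Ephrin-A FPKM summed to 76.6 to 80.3 in WT, 46.4 to 56.3 in Evx1as KO and 83.3 to 95.4 in EVX1 KO. The receptors of these ligands did not follow as a group. The most abundant, Epha2 and Epha1, ran from 28.5 to 74.3 FPKM and from 27.5 to 39.6 FPKM over all libraries and did not pass in any comparison, and the WT libraries of Epha2 alone were at 44.8 and 74.3 FPKM. Epha4, a receptor that binds ligands of both ephrin classes, was at 3.65 and 3.56 FPKM in WT, 1.83, 1.61 and 1.53 FPKM in Evx1as KO and 3.23, 3.30 and 2.40 FPKM in EVX1 KO. Evx1as KO lay below all other libraries, with a change of -0.79 ± 0.15 (adjusted p = 0.00673). EVX1 KO was 0.57 ± 0.13 above Evx1as KO (adjusted p = 0.0166), and this call ended when chromosomes were centred, at 0.35, and without the third Evx1as KO or the second EVX1 KO library. Ephb2 rose from 2.65 and 3.76 FPKM in WT to 8.55, 5.24 and 7.13 FPKM in Evx1as KO, with 3.62, 4.22 and 3.32 FPKM in EVX1 KO. Its rise was 0.91 ± 0.20 (adjusted p = 0.0116, lost without the first WT library). Ephb6, an Eph receptor without kinase activity, rose from 1.45 and 0.886 FPKM to 2.98, 1.90 and 2.30 FPKM (0.65 ± 0.19, adjusted p = 0.0378), and 5 single libraries could each end that call: both of WT, replicates 1 and 3 of Evx1as KO and the second of EVX1 KO. In EVX1 KO Ephb6 was at 1.47, 1.10 and 1.21 FPKM. The differences of EVX1 KO from Evx1as KO were -0.74 ± 0.18 for Ephb2 (adjusted p = 0.0188, lost without replicate 1 or 3 of Evx1as KO) and -0.58 ± 0.17 for Ephb6 (adjusted p = 0.0407, lost without replicate 1 or 3 of Evx1as KO or any 1 of EVX1 KO). Ephb4, the receptor that marks veins and the most abundant EphB, was slightly lower, at 37.6 and 32.2 FPKM in WT and 27.1, 27.3 and 25.6 FPKM in Evx1as KO (-0.37 ± 0.10, adjusted p = 0.0262), and lost its call without the first WT, the first Evx1as KO or the third Evx1as KO library. In EVX1 KO Ephb4 was at 31.5, 29.2 and 33.1 FPKM and did not pass against either group.

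The 3 Slits went in different directions. Slit3 was the most abundant and rose in Evx1as KO, with 8.91 and 8.95 FPKM in WT, 27.6, 22.4 and 27.6 FPKM in Evx1as KO and 12.1, 10.2 and 13.4 FPKM in EVX1 KO. The groups were fully separate and ordered WT, EVX1 KO, Evx1as KO. Its log2 fold change was 1.43 ± 0.13 for Evx1as KO against WT (adjusted p = 0.000713), 0.37 ± 0.13 for EVX1 KO against WT (adjusted p = 0.170) and -1.06 ± 0.12 for EVX1 KO against Evx1as KO (adjusted p = 0.00083). Slit2 was low and fell, from 0.914 and 1.02 FPKM in WT to 0.135, 0.381 and 0.187 FPKM in Evx1as KO, with 1.10, 0.570 and 0.587 FPKM in EVX1 KO. This change was -0.68 ± 0.20 (adjusted p = 0.0388) and -1.74 with a pseudocount of 0.1, and its call was lost without either WT library, without replicate 1 or 3 of Evx1as KO and without the second of EVX1 KO. Slit2 reached 1 FPKM only in the second WT and the first EVX1 KO library. It was thus tested only through groups where it was higher. Slit1 was at 0.513 and 0.411 FPKM in WT, 0.445, 0.673 and 0.734 FPKM in Evx1as KO and 1.64, 1.89 and 1.42 FPKM in EVX1 KO, where every library was above all others. Slit1 reached 1 FPKM only in EVX1 KO, so it was tested only through the group where it was high. Its level was 0.71 ± 0.15 higher in EVX1 KO than in Evx1as KO (adjusted p = 0.0124), lost without the second EVX1 KO library and 1.30 with a pseudocount of 0.1. Robo1, the only Robo that was tested, was at 9.76 and 9.84 FPKM in WT, 8.57, 6.85 and 7.72 FPKM in Evx1as KO and 12.9, 14.2 and 15.2 FPKM in EVX1 KO. The groups did not overlap, and EVX1 KO was 0.79 ± 0.10 above Evx1as KO (adjusted p = 0.00158), whereas neither knockout passed against WT (-0.31 ± 0.12, adjusted p = 0.0802, and 0.48 ± 0.12, adjusted p = 0.0760). Summed Slit FPKM was 10.3 to 10.4 in WT, 23.5 to 28.6 in Evx1as KO and 12.7 to 15.4 in EVX1 KO, against summed Robo FPKM of 10.6 to 10.7, 7.37 to 8.83 and 14.2 to 16.4. The sequence before the start of Slit3 is shown because it was the rise with the smallest adjusted p of any member in Evx1as KO (RefSeq, GRCm38.p6, chr11:35121206-35121455, plus strand, 5′ to 3′). It held none of the 3 motifs and so has no capitals.
Slit3: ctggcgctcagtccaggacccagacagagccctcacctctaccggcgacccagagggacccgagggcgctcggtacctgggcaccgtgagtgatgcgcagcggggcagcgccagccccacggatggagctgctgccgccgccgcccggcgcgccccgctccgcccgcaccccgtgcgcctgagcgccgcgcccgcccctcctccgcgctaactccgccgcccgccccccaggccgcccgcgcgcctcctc

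Of the netrin receptors, Unc5b had the highest mean FPKM over the 8 libraries of all members, although Plxnb2 exceeded it in replicates 1 and 3 of Evx1as KO. It was at 79.4 and 90.1 FPKM in WT, 43.2, 53.4 and 45.5 FPKM in Evx1as KO and 101, 94.8 and 80.6 FPKM in EVX1 KO. WT and EVX1 KO interleaved above Evx1as KO, which fell by 0.83 ± 0.13 against WT (adjusted p = 0.0033), and EVX1 KO exceeded Evx1as KO by 0.94 ± 0.11 (adjusted p = 0.00108). The ligand Ntn1 was at 2.10 and 2.11 FPKM in WT, 1.30, 2.58 and 1.31 FPKM in Evx1as KO and 7.90, 7.21 and 4.33 FPKM in EVX1 KO. Each EVX1 KO library was above all others, by 1.45 ± 0.23 against Evx1as KO (adjusted p = 0.00379). The attractive receptor Dcc was listed at 0 in 7 of the libraries and at 0.0108 FPKM in the second WT library, while its relative Neo1 was at 9.51 to 13.2 FPKM and did not pass in any comparison.

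**Figure D3:**
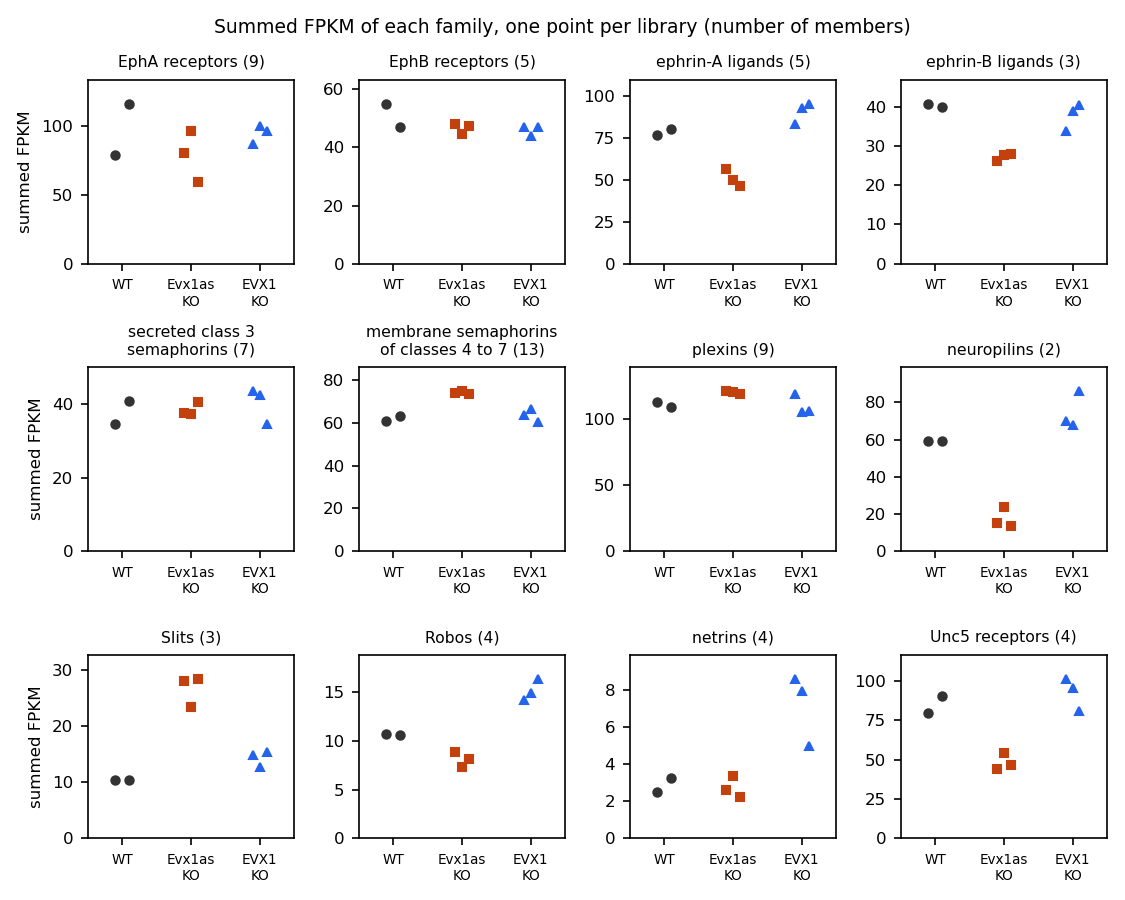
Summed FPKM (vertical axes from 0, a scale for each panel) of the members of each family in every library, with WT as black circles, Evx1as KO as red squares, EVX1 KO as blue triangles and the number of members in parentheses. Evx1as KO is lowest for neuropilins (13.4 to 23.5 FPKM), ephrin-A and ephrin-B ligands, Robos and Unc5 receptors and highest for Slits (23.5 to 28.6 FPKM) and membrane semaphorins (73.4 to 74.9 FPKM), and EVX1 KO is highest for netrins (4.95 to 8.60 FPKM), neuropilins, Robos and ephrin-A ligands. A sum follows the most abundant members, such as Nrp2, Robo1, Unc5b and Slit3, and Slit2 fell while the Slit sum rose.

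Between EVX1 KO and WT, Sema6d was the only member called. It was at 0.617 and 0.384 FPKM in WT, 0.168, 0.372 and 0.174 FPKM in Evx1as KO and 2.80, 3.01 and 2.07 FPKM in EVX1 KO. The EVX1 KO libraries were all above 2 FPKM and the other 5 below 0.7 FPKM. Sema6d thus passed the filter of 1 FPKM only through EVX1 KO. Being tested and being called higher there rest on the same values. Sema6d, a membrane semaphorin that binds plexin-A1 and is known from heart development, rose by 1.27 ± 0.19 against WT (adjusted p = 0.0266) and by 1.55 ± 0.17 against Evx1as KO (adjusted p = 0.000694), and with a pseudocount of 0.1 by 2.19 and 3.05. Of the 17 alternatives in which Sema6d was tested, 9 ended the call against WT and none ended that against Evx1as KO. Among the 9 were no filter (adjusted p = 0.0543), a pseudocount of 0.1, only the 2 groups compared and the replicate block. The others were the removal of either WT library, the third Evx1as KO library or the first or second EVX1 KO library. Just outside the threshold were Slit1 at 0.86 ± 0.17 (adjusted p = 0.0534), Ntn1 at 1.23 ± 0.26 (adjusted p = 0.0595), Robo1 (above) and Sema6c at 0.90 ± 0.24 (adjusted p = 0.0913), each with all EVX1 KO libraries above both WT libraries. No other member had an adjusted p under 0.1 there. The sequence before the start of Sema6d is shown because it was the one member called against WT in EVX1 KO. The sequence holds the T-box motif (capitals, here as ACACCT, the other strand of AGGTGT). So did 6 of the 59 member windows, Sema6d included, of which 5 were of untested members. It is from RefSeq on GRCm38.p6 at chr2:124089719-124089968 on the plus strand, 5′ to 3′, the first of 2 entries for the gene.
Sema6d: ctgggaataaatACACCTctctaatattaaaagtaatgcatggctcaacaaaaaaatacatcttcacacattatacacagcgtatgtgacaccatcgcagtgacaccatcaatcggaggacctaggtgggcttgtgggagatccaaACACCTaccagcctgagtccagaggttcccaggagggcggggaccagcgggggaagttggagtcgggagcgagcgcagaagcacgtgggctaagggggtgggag

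**Figure D4:**
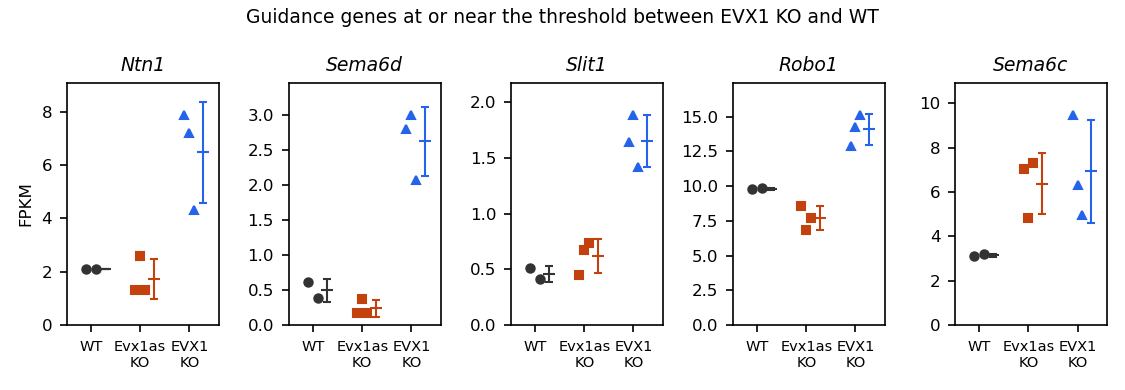
FPKM (vertical axes from 0, a scale for each panel) of the 5 guidance genes at or nearest to the threshold between EVX1 KO and WT, one point per library, with the mean and SD of each group beside its points. In all 5 panels the EVX1 KO libraries lie above both WT libraries, and for Sema6c the Evx1as KO libraries do so as well (4.81 to 7.31 FPKM against 3.10 and 3.18 FPKM).

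Promoter letters were searched for 3 motifs in the 250 bases before each start, on both strands: AGGTGT (T-box motif), TAATTA (homeodomain core, its own reverse complement) and CTTTGA (TCF/LEF core). RefSeq windows were matched by symbol for 59 of the 68 members. For 53 of these, bases after the window matched the first part of a GENCODE transcript of the gene. No such match was found for Efnb1, Epha10, Robo2, Sema3d, Sema4c and Sema6c. Over all 27025 promoters in that table, 12.0%, 4.90% and 14.0% held the motifs in that order. Among all 59 members with a window, 6, 3 and 4 did (10.2%, 5.08% and 6.78%). Among the 36 tested members with a window, 1 held the T-box motif, 1 the homeodomain core and 3 the TCF/LEF core (2.78%, 2.78% and 8.33%). Among the 23 untested members with a window these were 5, 2 and 1 (21.7%, 8.70% and 4.35%). Of the 12 windows of members lower in Evx1as KO than in WT, 1 held a motif (Nrp2, the TCF/LEF core with its first base 146 bases before the start), and of the 8 windows of members higher there none did. Windows of tested members were rich in G and C, with a median of 65.8% and 17.5 CpG dinucleotides, where all promoters had 52.0% and 6. A match of letters is no evidence of binding, and motifs of this length depend on base composition.

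The genes that work with these families were called at about the rate of all genes. Of 59 partners (co-receptors, other ligands and proteins that carry the signal inside the cell) 45 were tested, and 3 rose and 7 fell in Evx1as KO against WT (22.2% called, background 24.5%). None passed in EVX1 KO against WT, and 8 were higher and 4 lower in EVX1 KO than in Evx1as KO (26.7% called, background 22.0%). The most abundant to fall was Enah, an actin regulator downstream of Robo, from 89.5 and 92.3 FPKM in WT to 44.5, 54.0 and 51.3 FPKM in Evx1as KO (-0.86 ± 0.11, adjusted p = 0.0018). Flrt3, a membrane protein that binds Unc5 receptors, went from 3.55 and 5.63 FPKM to 1.18, 1.53 and 1.74 FPKM (-1.15 ± 0.18, adjusted p = 0.00367). Among the mediators of semaphorin signals, Crmp1 rose from 4.65 and 7.68 FPKM to 19.7, 16.1 and 21.3 FPKM (1.51 ± 0.23, adjusted p = 0.00335), and its relative Dpysl3 fell by 0.48 on the log2 scale (adjusted p = 0.0258). For all 3 of Enah, Flrt3 and Crmp1 the Evx1as KO libraries lay apart from the other 5, which interleaved. In EVX1 KO Crmp1 stood at 2.62, 3.48 and 4.72 FPKM, the highest just above the lower WT library. L1cam, a co-receptor of neuropilin, fell by 0.80 ± 0.23 in Evx1as KO (adjusted p = 0.0324), but its WT libraries were at 9.93 and 5.23 FPKM, and the change was -0.39 without the first, with the call lost, and -1.20 without the second. The others called in that comparison were Abl2, Chn2 and Mical2 (lower, Mical2 at -0.61 and not called without the second WT library) and Ablim3 and Rnd2 (higher). The calls of Chn2, Dpysl3 and Rnd2 were lost without either WT library and that of Ablim3 without the second. Leaving out the third Evx1as KO library ended those of Dpysl3, Rnd2, L1cam and Mical2, and leaving out the first those of L1cam and Mical2.

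The 24 members that were not tested did not pass 1.22 FPKM in any library. The highest single values were 1.22 FPKM for Unc5a, 0.934 FPKM for Sema4a and 0.819 FPKM for Sema5a. Unc5a was at 0.0342 and 0.231 FPKM in WT, 0.989, 0.785 and 1.22 FPKM in Evx1as KO and 0.135, 0.173 and 0.0654 FPKM in EVX1 KO, and Sema5a at 0.220 and 0.227, then 0.819, 0.694 and 0.761, then 0.313, 0.246 and 0.245 FPKM. For both, every Evx1as KO library was above the other 5. Robo2 was at 0.643 and 0.557 FPKM in WT and 0.191, 0.252 and 0.202 FPKM in Evx1as KO, and Robo3 at 0.403 to 0.647 FPKM in EVX1 KO against 0.0624 to 0.171 FPKM in all other libraries. When no filter was applied, 3 of these 24 were called between Evx1as KO and WT (Unc5a and Sema5a higher, Robo2 lower, with 10.4% of 23869 genes called), 4 between EVX1 KO and Evx1as KO (Robo3 higher, Epha8, Sema5a and Unc5a lower, with 8.87% called) and none between EVX1 KO and WT (0.117% called). At such levels a value rests on few fragments, so these are given as levels.

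Replicate 2 of Evx1as KO stood nearest to WT among the 3 Evx1as KO libraries for 17 of the 22 called members (77.3%), and for 66.6% of all genes called in that comparison. Efna3, Efnb1, Nrp2, Plxna2, Sema4d, Slit3 and Unc5b kept their calls between Evx1as KO and WT under all 18 alternatives, and Epha4 and Nrp1 under 17, being too low to be tested with the filter of 5 FPKM. Of the 23 calls between EVX1 KO and Evx1as KO, 11 were kept under all 18 and 4 (Nrp1, Plxnd1, Sema6d and Sema7a) under the 17 that tested them, and the other 8 (Efna5, Efnb3, Epha4, Ephb2, Ephb6, Plxna4, Plxnb2 and Slit1) were each lost without at least 1 library. The second EVX1 KO library was among these for 7 of them, all but Ephb2, and the third Evx1as KO library for 7, all but Slit1. Overlapping symbols were listed for 13 tested members, among them Efna3, Nrp1, Nrp2 and Slit3, and with no strand setting given, reads of such neighbours cannot be told apart.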

How the data were processed

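Strand-marking mRNA libraries were made from total RNA, per the labels' protocols. Expression was deposited by the authors as 1 table of FPKM for all 8 libraries. Per the submitters' processing notes, CASAVA, TopHat2 2.0.11, mm10 and mm9 were used in roles not stated. Which program gave FPKM, with what annotation and strand setting, is not given here. Symbols on several lines had identical values and were used once.

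The 13188 genes that reached 1 FPKM in 2 or more libraries entered 1 linear model of log2(FPKM + 1) with a mean per group over all 8 libraries (limma 3.58.1 in R 4.3.3, trended empirical Bayes, two-sided tests, Benjamini-Hochberg over all genes, adjusted p under 0.05 called). The shared spread was used because WT has 2 libraries. Fold changes on this scale understate those of low genes. Without read counts in the table, the depth of each library is unknown and counting error has no interval here. Relative depth was read from the step that 1 fragment makes in low genes, and 35.0% to 38.2% of the genes used lay at that step. Replicate numbers were not used as pairs. The 18 alternatives were other pseudocounts, filters, scalings and models, a replicate block and the removal of each library. The steps were tested on simulated data.

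Members, partner genes and marker lists were chosen with earlier results of these data known. The rule for naming took all called members, the 2 most abundant of each family and the called partners with the largest changes. Ntn3, Ablim1 and Farp1 fell under it but are not described. Efna1, Efna2, Plxnb1, Dcc and Neo1 are named outside it. Unc5a, Sema5a, Sema4a, Robo2, Robo3, Epha8, Sema3f, Sema4b and Plxnc1 were named after their values were seen, as were members just outside the threshold. Promoter windows and motifs were read from RefSeq (GRCm38.p6) with Python 3.11.15 and pandas 2.3.3. The coordinates of the deposited table were not used.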

Additional observations from a re-analysis of the deposited data

How the results depend on the processing

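Between Evx1as KO and WT the direction of each called member held wherever it was tested, and of the 22 calls 7 stood under all 18 alternatives and 2 under 17. With the filter of 5 FPKM, 8 of the 22 were too low to be tested. Model settings ended calls as well as single libraries did. No filter ended those of Ephb6, Plxna4, Sema3b and Sema6c. Only the 2 groups ended those of Ephb6 and Sema3b, and the replicate block those of Ephb4, Plxna4, Sema3b and Slit2. Between EVX1 KO and Evx1as KO, no filter ended the calls of Ephb2, Ephb6 and Plxnb2. The counts of members lower and higher, 14 and 8, ran from 8 to 13 and from 3 to 9 when single libraries were left out, and 8 were lower with a filter of 5 FPKM, which tests fewer genes. Between EVX1 KO and Evx1as KO the 16 higher and 7 lower became 12 to 17 and 3 to 7 without single libraries, and 9 were higher with the filter of 5 FPKM. Between EVX1 KO and WT the count of members higher, 1, was 0 with a pseudocount of 0.1, no filter, the filter of 5 FPKM, only the 2 groups or the replicate block, 2 with chromosome centring or without the intensity trend, 5 with array weights and 0 to 4 without single libraries, and 1 was lower with array weights. All genes called in the 3 comparisons ran from 1421 to 3414, 4 to 634 and 1409 to 2666 without single libraries. EVX1 KO against WT called 28 with no filter, 27 with only the 2 groups, 1148 with array weights, 78 without the trend and 28 with the replicate block, and EVX1 KO against Evx1as KO called 5552 with array weights. Partners called ran from 6 to 13 and from 7 to 11 without single libraries, and 1 passed with array weights between EVX1 KO and WT, where 0 did otherwise. The cause of these differences was not tested.

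With the replicate block 10 members were lower and 8 higher in Evx1as KO than in WT, and 16 higher and 7 lower in EVX1 KO than in Evx1as KO. Same-numbered libraries did not deviate together (correlations from -0.0985 to 0.0759), so the numbers are not taken as pairs. Signs turned only for members with no call. With array weights these were Epha1 in Evx1as KO against WT (-0.0027), Ephb6 (-0.0095) and Sema4c (0.025) in EVX1 KO against WT and Sema6c between the knockouts (-0.020). With chromosome centring they were Nrp1 (0.0064), Plxna2 (-0.036) and Efnb2 (0.12) in EVX1 KO against WT, and with the replicate block Sema4c (0.0014). Leaving out single libraries gave, on the log2 scale, ranges in Evx1as KO against WT of -0.11 to 0.19 for Epha1, -0.32 to 0.052 for Ephb3, -0.13 to 0.43 for Sema3e, -0.0023 to 0.24 for Sema4c, -0.16 to 0.044 for Sema6a, in EVX1 KO against WT of -0.52 to 0.20 for Epha2, -0.017 to 0.36 for Ephb2, -0.12 to 0.26 for Ephb6, -1.02 to 0.52 for Nrp1, -0.094 to 0.36 for Plxna2, -0.21 to 0.39 for Plxna4, -0.15 to 0.26 for Plxnd1, -0.32 to 0.0076 for Sema3c, -0.14 to 0.11 for Sema4c, -0.024 to 0.33 for Sema7a and between the knockouts of -0.049 to 0.065 for Efnb2, -0.14 to 0.27 for Sema6c.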
